A study of Mus musculus with 10 samples.

Results

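The genes described here are 8 subunits of the voltage-gated sodium channels, *Scn1a*, *Scn3a*, *Scn8a*, *Scn9a*, *Scn7a*, *Scn2b*, *Scn3b* and *Scn4b*, taken by symbol from the 33502 gene symbols counted in nuclei of the mouse paraventricular thalamus (PVT). All 8 had counts. The nuclei came from tissue punches of the PVT and neighbouring regions of C57BL/6J mice aged 12 weeks. The authors' methods give 4 mice pooled per sample, for 4 replicates, fewer than the 10 libraries here. No treatment or transgene is given for any animal. The 10 libraries were 6 labelled female and 4 whose labels name no sex, called here the libraries without a sex label; the deposited metadata call their nuclei male. The library was the replicate throughout. Counts are of unique molecular identifiers (UMIs), the tags that droplet sequencing puts on RNA molecules when they are captured. UMIs were summed per library over the nuclei of each cell type, 10410 neurons, 473 oligodendrocyte precursor cells (OPCs) and 5302 astrocytes among 20503 nuclei named by the authors, and then over neurons split by the regional markers *C1ql3*, *Adarb2*, *Gad2* and *Nwd2*.

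A sodium channel is built around a pore-forming alpha subunit, which opens when the membrane depolarizes and carries the inward current of the upstroke of the action potential. Beta subunits are small membrane glycoproteins with an immunoglobulin-like domain that change the gating and surface level of the alpha subunit and also act in cell adhesion. Among the alpha subunits, *Scn1a* is best known from inhibitory interneurons and from epilepsy, *Scn3a* from the developing brain, *Scn8a* from the axon initial segment and nodes of Ranvier, and *Scn9a* from sensory neurons of the pain pathway. *Scn7a* encodes Nax, an atypical member known as a sensor of the sodium level of body fluids rather than as a voltage-gated channel. *Scn2b* and *Scn4b* encode beta subunits bound to the alpha subunit by a disulfide bond, whereas the beta subunit of *Scn3b* is bound without one. OPCs, the dividing precursors of oligodendrocytes, are known for voltage-gated sodium currents and for synaptic input from neurons. Neurons of the PVT are excitatory thalamic cells that fire in bursts or in single spikes.

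The 8 genes lie on 3 chromosomes. In build GRCm38.p6 (coordinates from RefSeq, strand from GENCODE), 4 alpha subunit genes stand on the minus strand of chromosome 2, in the order *Scn3a* (65457118 to 65567591), *Scn1a* (66270781 to 66440837), *Scn9a* (66480080 to 66635114) and *Scn7a* (66673426 to 66784910). The gap between *Scn1a* and *Scn9a* is 39.2 kb and that between *Scn9a* and *Scn7a* is 38.3 kb, while *Scn3a* is 703 kb from *Scn1a*. The beta subunit genes stand on the plus strand of chromosome 9, *Scn3b* at 40269216 to 40291618, *Scn2b* at 45117876 to 45130070 and *Scn4b* at 45138624 to 45154155, and *Scn2b* and *Scn4b* are 8.55 kb apart. *Scn8a* is alone on the plus strand of chromosome 15 (100869863 to 101045938). The bases just upstream of *Scn1a* and *Scn7a* are shown because these genes of the same cluster, with *Scn9a* between them, differed in their patterns over cell types, *Scn1a* highest in neurons and *Scn7a* highest in ependymal cells. Both are read from RefSeq (GRCm38.p6), minus strand, and the capitals mark CpG dinucleotides.
Scn1a, chr2:66440841-66441087: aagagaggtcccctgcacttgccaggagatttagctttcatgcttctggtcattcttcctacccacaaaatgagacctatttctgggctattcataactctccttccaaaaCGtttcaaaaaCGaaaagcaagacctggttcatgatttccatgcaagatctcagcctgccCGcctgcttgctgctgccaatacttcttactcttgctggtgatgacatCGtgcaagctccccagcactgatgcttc
Scn7a, chr2:66784915-66785160: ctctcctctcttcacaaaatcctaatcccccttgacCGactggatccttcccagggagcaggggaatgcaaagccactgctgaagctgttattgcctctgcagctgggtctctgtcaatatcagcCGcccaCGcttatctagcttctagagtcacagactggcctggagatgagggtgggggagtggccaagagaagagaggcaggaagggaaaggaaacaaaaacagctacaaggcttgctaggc
The upstream window of *Scn1a* held 4 CpG and that of *Scn7a* held 3, against a median of 6 over 32851 promoter windows of 250 bases before the start. On either strand, CCAAT was found once upstream of *Scn1a* and not upstream of *Scn7a* (33.8% of all windows hold it), and GGGCGG once upstream of *Scn7a* and not upstream of *Scn1a* (32.7%). TATAAA (12.4% of windows), CAGCACC (5.73%) and GGACAGC (5.28%) were in neither. The latter pair of motifs are stretches of the element bound by the neuronal repressor REST. No match overlapped another, and a match here is only a description of the letters. In the GENCODE annotation most of the *Scn1a* window lies in the first exon of a non-coding gene on the opposite strand, *Gm13629*. A promoter entry was found for 6 of the 8 genes.

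Library depth ranged from 5119927 to 12891409 UMIs in the female libraries and from 7568267 to 55956635 in those without a sex label. Neurons had a median of 11157 UMIs, OPCs 3658, astrocytes 3006.5 and microglia 2168. The sums carried the markers of the authors' names, for example *Agt* at 1736 CPM (UMIs scaled to a common library total) in astrocytes against 17.3 in neurons, and *Syt1* at 2235 in neurons against 140 in astrocytes. A sum needed at least 10 nuclei, so OPCs had sums in 9 libraries: the first library without a sex label held 2 OPCs. The fourth library without a sex label stands apart in OPCs, where its sum held 18 nuclei and the neuron markers *Snap25*, *Syt1*, *Rbfox3* and *Slc17a6* together reached 57.4% of their level in its neurons, against 11.2% to 31.6% in the other 8 libraries. Across libraries, 46 cell barcodes occurred more than once, in 92 nuclei. Where a library is a pool of 4 mice, as the authors state for their 4 replicates, the spread between libraries is a spread between pools.

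*Scn1a*, *Scn3a*, *Scn8a* and *Scn9a* were highest in neurons, and the first 3 were also called higher in OPCs than in astrocytes. Of all UMIs of a gene, the share in neurons was 95.9% for *Scn1a*, 96.0% for *Scn3a*, 94.1% for *Scn8a* and 97.6% for *Scn9a*. Levels are CPM of the summed UMIs after scaling by trimmed mean of M values (TMM). They compare 1 gene between cells and not 1 gene with another, because the libraries are read from the 3′ end.

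*Scn1a* stood at 387 ± 44.1 CPM in neurons (mean ± SD, n = 10 libraries), with a lowest value of 324, a median of 377 and a highest value of 476. In OPCs it was at 188 ± 80.7 CPM (n = 9), with 129, 161 and 385 as lowest, median and highest, from 21 to 90 UMIs per library. In astrocytes it was at 23.6 ± 17.3 CPM (n = 10), from 7.52 to 58.0. Neurons were above OPCs in 9 of 9 libraries and OPCs above astrocytes in 9 of 9. The ranges of neurons and OPCs overlap through the fourth library without a sex label alone, and without it the highest OPC value was 244.

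*Scn3a* stood at 296 ± 44.5 CPM in neurons, with a lowest value of 244, a median of 277 and a highest value of 388. Its level in OPCs was 166 ± 39.9 CPM, and the lowest, median and highest values were 118, 160 and 234. Astrocytes had 19.2 ± 10.96 CPM, from 8.43 to 42.0. The ranges of the 3 cell types did not overlap.

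*Scn8a* stood at 362 ± 57.2 CPM in neurons, where the lowest value was 308, the median 347 and the highest 490. In OPCs the mean was 165 ± 61.3 CPM, with 98.0, 149 and 302 as lowest, median and highest. In astrocytes it was 66.6 ± 20.3 CPM, from 41.8 to 103, the highest astrocyte level of the 4 genes relative to neurons. OPCs were above astrocytes in each of the 9 libraries with both, although the ranges met at the ends.

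*Scn9a* differed from the other 3 in OPCs. It stood at 275 ± 54.8 CPM in neurons (lowest 212, median 265, highest 390), at 19.8 ± 25.2 CPM in OPCs and at 8.19 ± 8.74 CPM in astrocytes. In OPCs the lowest value was 0, the median 8.91 and the highest 75.6, and the upper values came from the third and the fourth of the libraries without a sex label. No neuron sum overlapped with a sum of OPCs or astrocytes.

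The order over all 8 cell types was tested between neighbours by an exact two-sided sign-flip permutation test over libraries on log2(CPM + 1), adjusted over 56 neighbour pairs of the 8 genes. Neurons were above OPCs, the next type, for *Scn1a*, *Scn3a* and *Scn8a* (adjusted p = 0.0243 each in the exact test, 9 of 9 libraries). OPCs were above the type after them for the same genes, ependymal cells for *Scn1a* and *Scn3a* (exact test, adjusted p = 0.0365, 8 of 8 libraries) and astrocytes for *Scn8a* (exact test, adjusted p = 0.0243, 9 of 9). For *Scn9a* the second type was ependymal cells with 43.7 ± 44.6 CPM, below neurons in 9 of 9 libraries (exact test, adjusted p = 0.0243). Below these steps, the neighbours did not differ beyond their spread, except that *Scn1a* was higher in oligodendrocytes (37.4 ± 20.5 CPM) than in astrocytes in 10 of 10 libraries (exact test, adjusted p = 0.0243).

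**Figure D1:**
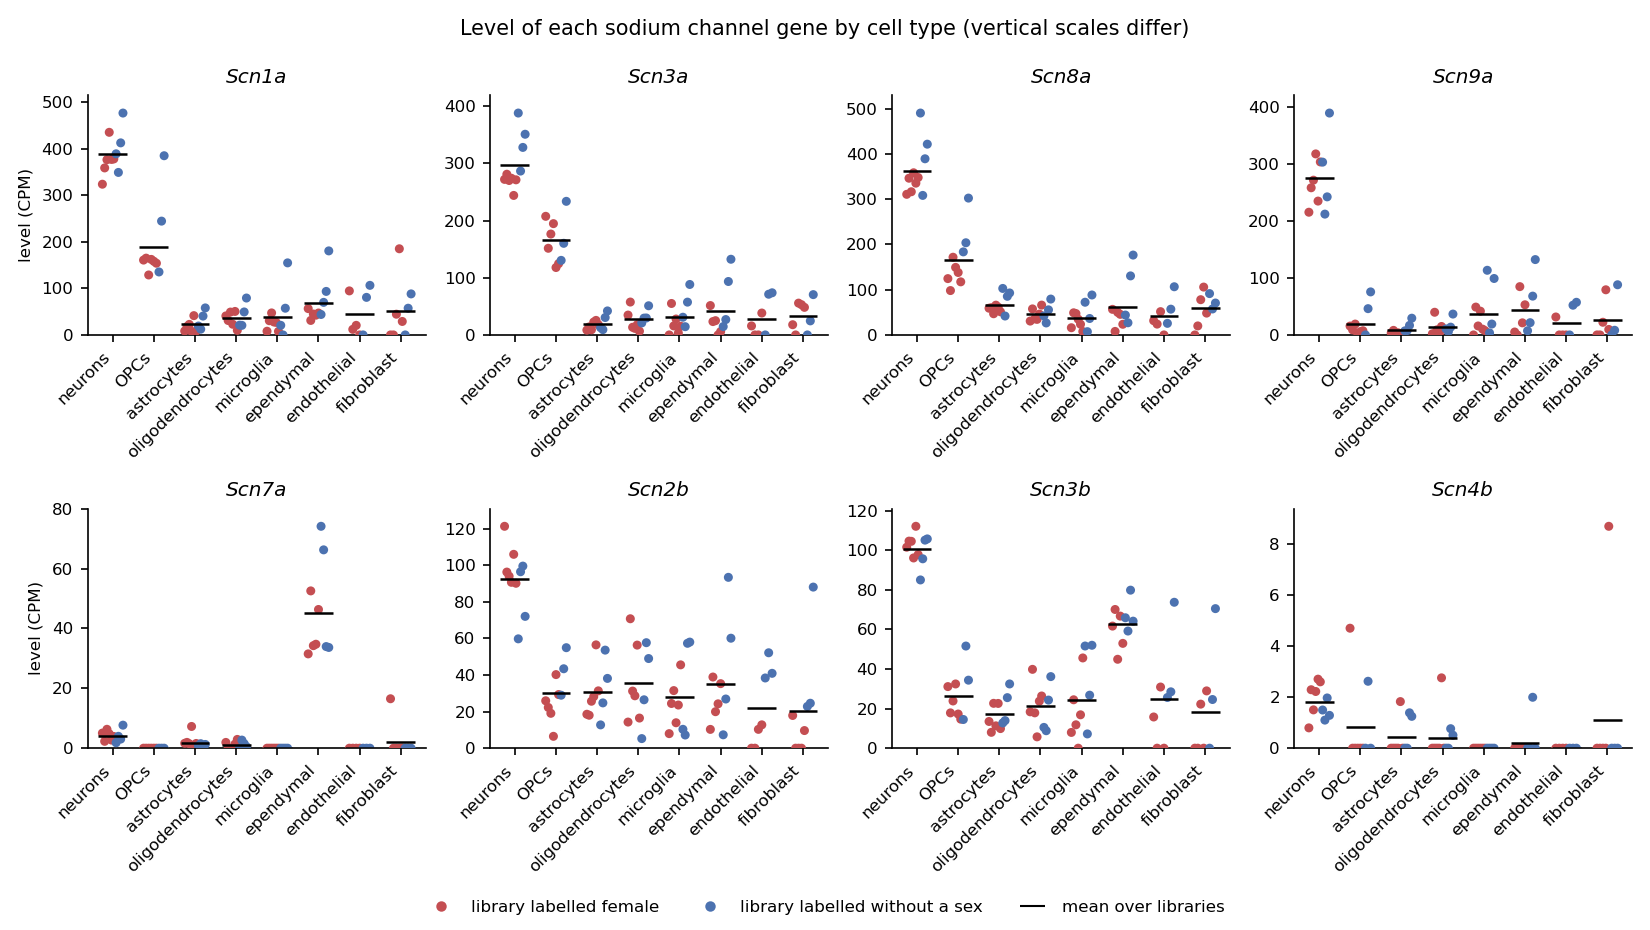
Level of each of the 8 genes in CPM (vertical axis, own scale per gene) by cell type (horizontal axis). Each point is 1 library, coloured by its label, and the black line is the mean over libraries. *Scn1a*, *Scn3a* and *Scn8a* step down from neurons to OPCs to the remaining types, *Scn9a* falls to near the axis in OPCs, and *Scn7a* has its points in ependymal cells between 31.5 and 74.1 CPM.

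All genes were tested on these sums with the quasi-likelihood method of edgeR. A gene counted as called when its Benjamini-Hochberg adjusted p was below 0.05 and its log2 fold change was larger than 0.5 in size. Of the 8 genes 6 passed the filter on low counts. All 6 were called higher in neurons than in astrocytes, a call made for 32.4% of the 9842 genes tested (27.9% lower, 60.3% in either direction). The median log2 fold change of the 6 was 3.23, against 0.09 over all genes tested. The log2 fold change was 5.03 ± 0.27 (SE) for *Scn9a*, 4.10 ± 0.21 for *Scn1a*, 3.97 ± 0.22 for *Scn3a* and 2.49 ± 0.16 for *Scn8a*, with adjusted p values by edgeR from 8.25e-24 for *Scn8a* to 2.10e-28 for *Scn1a*. Each was higher in 10 of 10 libraries.

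Between OPCs and astrocytes, 3 of the 6 were called higher in OPCs, where 19.3% of all genes tested were called higher and 38.3% in either direction. The log2 fold change was 3.07 ± 0.26 for *Scn3a* (edgeR, adjusted p = 6.90e-17), 2.89 ± 0.24 for *Scn1a* (edgeR, adjusted p = 3.88e-17) and 1.35 ± 0.19 for *Scn8a* (edgeR, adjusted p = 5.41e-09). Within the female libraries alone these were 3.17, 2.94 and 1.19, and within the libraries without a sex label 2.69, 2.75 and 1.51. Without OPCs and astrocytes that held a UMI of *Rbfox3*, *Slc17a6* or *Gad2*, they were 3.25, 2.75 and 1.34, and all 3 remained called. *Scn9a* had a log2 fold change of 1.10 ± 0.49 (edgeR, adjusted p = 0.0626) and was not called. It was called with DESeq2 at 1.35, while leaving out the nuclei with those markers put it at -0.85.

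Neurons were higher than OPCs for 6 of 6 genes, a call made for 29.6% of all genes tested (50.5% in either direction). Over all genes, 58.6% of the calls were higher in neurons with TMM and 45.9% with the size factors of DESeq2, and the median log2 fold change moved from 0.16 to -0.03, while the 6 genes were called with either. The log2 fold change was 3.93 ± 0.34 for *Scn9a* (edgeR, adjusted p = 8.53e-17) but only 1.21 ± 0.20 for *Scn1a* (5.32e-07), 1.14 ± 0.17 for *Scn8a* (3.23e-08) and 0.90 ± 0.21 for *Scn3a* (0.000211). The calls of *Scn1a*, *Scn3a* and *Scn8a* were lost when only nuclei with at most 1% mitochondrial transcripts were used, which left OPC sums in 2 libraries (0.91, 1.07 and 0.72). There *Scn9a* was still called at 2.42, and *Scn2b* and *Scn3b* did not pass the filter on low counts. The call of *Scn3a* was lost also without the library term (0.84). Within the libraries without a sex label *Scn8a* had 0.74 and was not called.

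**Figure D2:**
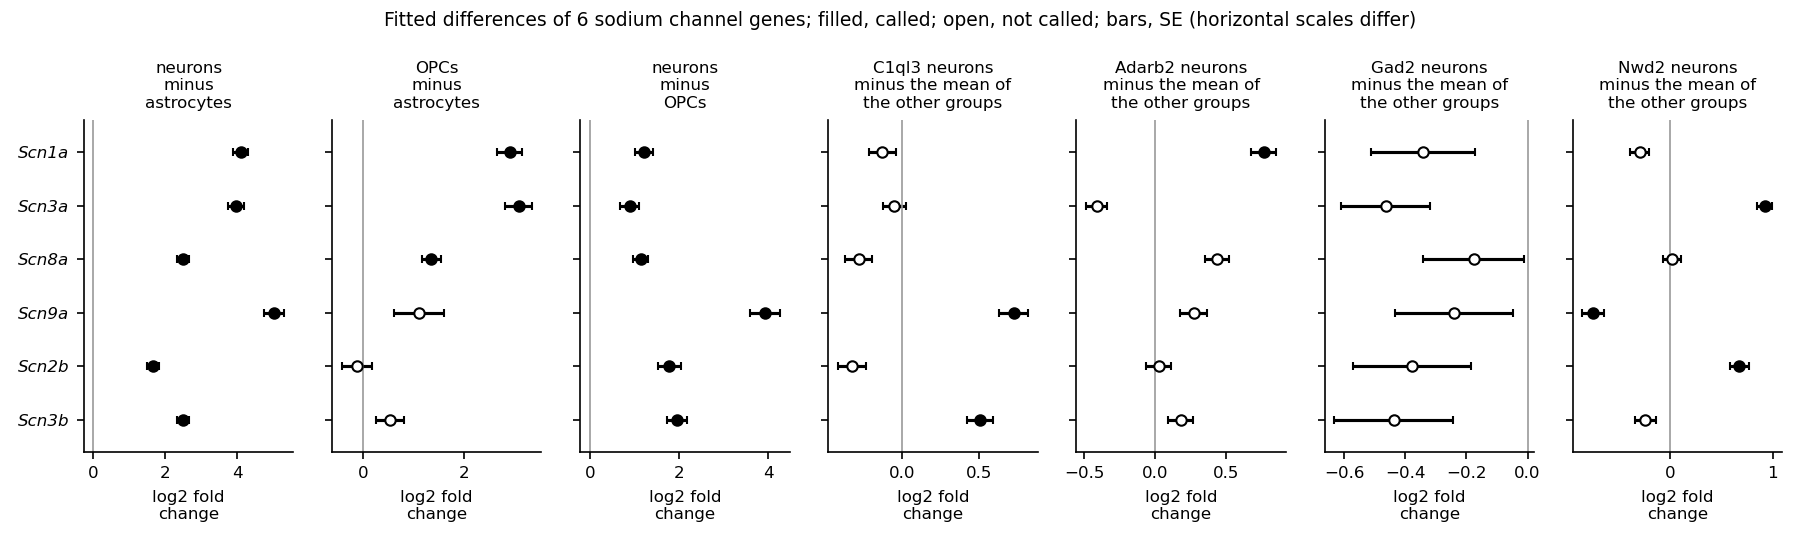
Fitted log2 fold change (horizontal axis, own scale per comparison) of the 6 genes that passed the filter, in 3 comparisons of cell types and 4 of neuron groups. Bars are SE, filled points were called and open points were not. In the comparison of OPCs with astrocytes *Scn1a*, *Scn3a* and *Scn8a* are filled, at 2.89, 3.07 and 1.35, and *Scn9a*, *Scn2b* and *Scn3b* are open.

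As a measure of neuronal RNA in other nuclei, each gene was set beside *Snap25*, *Syt1*, *Rbfox3* and *Slc17a6* summed, as a percent of its level in neurons of the same library. In OPCs the summed neuron markers were at 21.0 ± 14.9% of the neuron level (n = 9), and singly from 14.0% (*Syt1*) to 34.6% (*Snap25*). *Scn3a* was at 68.8 ± 13.3%, *Scn1a* at 57.0 ± 19.1% and *Scn8a* at 56.0 ± 17.0%, each above the neuron markers in 9 of 9 libraries. *Scn9a* was at 8.21 ± 9.22%, above them in 0 of 9. In the fourth library without a sex label, whose neuron markers in OPCs were highest, *Scn1a* in OPCs was at 101% of its level in neurons. In astrocytes the neuron markers were at 10.2 ± 5.80% (n = 10), and singly from 6.48% (*Rbfox3*) to 19.1 ± 10.7% (*Slc17a6*). *Scn8a* was at 20.6 ± 4.31%, above the sum in 10 of 10 libraries but near the mean of *Slc17a6* alone, whereas *Scn1a* (6.87 ± 4.77%), *Scn3a* (7.48 ± 4.24%) and *Scn9a* (3.33 ± 3.21%) were above the sum in 0, 1 and 0 of 10. The part that free RNA has in these levels was not tested.

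**Figure D3:**
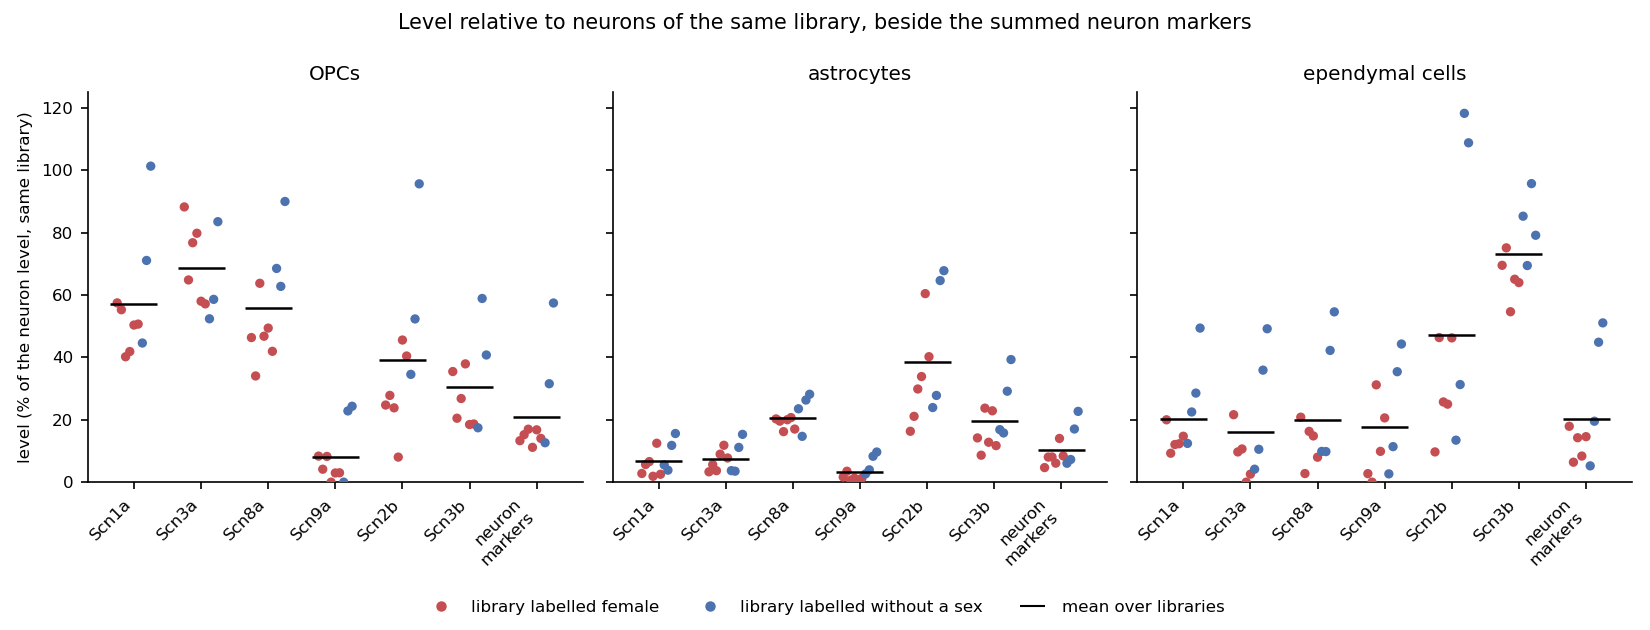
Level of 6 genes and of the 4 summed neuron markers in OPCs, astrocytes and ependymal cells, as a percent of the level in neurons of the same library (vertical axis). Points are libraries, coloured by label, and black lines are means. In OPCs *Scn1a*, *Scn3a* and *Scn8a* lie above the neuron markers and *Scn9a* below them, and in ependymal cells *Scn3b* lies above them at 54.6% to 95.7%.

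The share of nuclei with at least 1 UMI was also higher in neurons than in OPCs at equal depth. After each nucleus was thinned to 2000 UMIs and shallower nuclei (197 of 10410 neurons, 93 of 473 OPCs) were left out, *Scn1a* was found in 41.7 ± 2.59% of neurons and 27.1 ± 6.37% of OPCs (mean ± SD over libraries). *Scn8a* was found in 40.6 ± 3.71% of neurons and 27.7 ± 11.9% of OPCs, and *Scn3a* in 36.8 ± 3.88% and 25.0 ± 7.26%. For *Scn9a* the shares were 31.5 ± 4.19% and 3.77 ± 7.08%. Thinning also left out 430 of 993 microglia, 847 of 2462 oligodendrocytes, 994 of 5302 astrocytes and 171 of 469 ependymal nuclei. Shares in these types are thus of their deeper nuclei. In microglia, a non-neuronal type with a median of 2168 UMIs, the shares were 4.54 ± 4.39% for *Scn1a*, 4.71 ± 4.56% for *Scn8a*, 4.17 ± 2.71% for *Scn3a* and 2.93 ± 3.62% for *Scn9a*. *Scn8a* was found in 10.4 ± 3.34% of astrocytes, beside 7.43 ± 5.65% of oligodendrocytes, and this difference was not tested. Without thinning, the shares in neurons were 82.0% for *Scn1a*, 82.4% for *Scn8a*, 79.8% for *Scn3a* and 72.9% for *Scn9a*.

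*Scn7a* was the 1 gene of the 8 with its highest level outside neurons. It stood at 45.3 ± 15.9 CPM in ependymal cells, the ciliated cells that line the ventricles, with a lowest value of 31.5, a median of 34.7 and a highest value of 74.1 over 9 libraries, from 7 to 17 UMIs each. In neurons it was at 4.16 ± 1.85 CPM (n = 10), with 1.83, 3.93 and 7.69 as lowest, median and highest. The groups did not overlap, and ependymal cells were above neurons in 9 of 9 libraries (exact sign-flip test, adjusted p = 0.0243). In ependymal cells, *Scn1a*, *Scn3a*, *Scn8a* and *Scn9a* were at 16.03% to 20.1% of their neuron level on average, beside 20.2 ± 16.5% for the neuron markers.

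Elsewhere *Scn7a* was near the limit of detection. It had 16 UMIs in all astrocytes (1.74 ± 2.05 CPM), 7 in oligodendrocytes and 1 in fibroblasts. OPCs, microglia and endothelial cells had 0 UMIs, where the 3 UMIs that a count of 0 allows amount to 1.40, 1.10 and 4.63 CPM over the class. After thinning it was found in 11.3 ± 5.32% of ependymal nuclei, 0.621 ± 0.424% of neurons and 0 of 563 microglia, which allows a share of up to 0.533%. *Scn7a* did not pass the filter on low counts. In edgeR without that filter, neurons were above astrocytes by a log2 fold change of 1.79 ± 0.35 (adjusted p = 4.34e-06), and 9 of 10 libraries had this direction.

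Of the beta subunit genes, *Scn2b* had 87.8% of its UMIs in neurons, *Scn3b* 92.1% and *Scn4b* 87.3%. *Scn3b* stood at 101 ± 7.49 CPM in neurons, with 85.0, 103 and 112 as lowest, median and highest over 10 libraries. Its second level was in ependymal cells, at 62.8 ± 10.0 CPM, with 44.9, 64.1 and 79.8 over 9 libraries. These groups did not overlap, and neurons were higher in 9 of 9 libraries (exact sign-flip test, adjusted p = 0.0243). Ependymal cells were in turn above OPCs, at 26.4 ± 12.2 CPM, in 8 of 8 libraries (exact test, adjusted p = 0.0365). In ependymal cells *Scn3b* was at 73.1 ± 12.3% of its neuron level, above the neuron markers in 9 of 9 libraries, and thinned nuclei held it in 12.4 ± 4.74%, against 1.51 ± 2.22% of microglia. *Scn3b* and *Scn7a* were thus the genes of the family with counts in ependymal cells beyond those of the neuron markers in every library measured. For *Scn3b* this was not particular to ependymal cells. It was above the neuron markers also in astrocytes (19.5 ± 9.36% of its neuron level, 10 of 10 libraries) and OPCs (30.5 ± 14.0%, 8 of 9). The same held in microglia (35.5 ± 31.4%, 8 of 10) and oligodendrocytes (23.6 ± 12.7%, 7 of 10).

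*Scn2b* stood at 92.6 ± 17.0 CPM in neurons, with 59.8, 95.2 and 121 as lowest, median and highest. The next levels were 35.6 ± 21.7 CPM in oligodendrocytes, 35.2 ± 27.0 in ependymal cells, 30.8 ± 14.7 in astrocytes and 30.1 ± 14.4 in OPCs. Neurons were above oligodendrocytes in 10 of 10 libraries (exact sign-flip test, adjusted p = 0.0243), and none of the 6 further steps down to fibroblasts exceeded its spread. Relative to neurons *Scn2b* was at 38.6 ± 19.0% in astrocytes, 44.0 ± 28.1% in oligodendrocytes and 44.8 ± 36.4% in microglia, above the neuron markers in 10 of 10, 10 of 10 and 9 of 10 libraries. Its thinned shares were even across these types, 5.02 ± 2.89% of astrocytes, 6.84 ± 5.25% of oligodendrocytes and 5.45 ± 4.56% of microglia, against 14.1 ± 3.63% of neurons.

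*Scn4b* had 166 UMIs in all, 145 of them in neurons. Its level there was 1.80 ± 0.65 CPM, from 0.80 to 2.71, and no other type exceeded 1.09 CPM on average. Microglia and endothelial cells had 0 UMIs. At this depth a difference between neurons and the next type was not detectable (exact sign-flip test, adjusted p = 0.175).

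In edgeR, *Scn3b* and *Scn2b* were called higher in neurons than in astrocytes, with log2 fold changes of 2.49 ± 0.16 (adjusted p = 2.23e-23) and 1.66 ± 0.18 (adjusted p = 3.03e-13). Against OPCs neurons were higher by 1.96 ± 0.22 for *Scn3b* (edgeR, adjusted p = 9.20e-12) and 1.78 ± 0.26 for *Scn2b* (edgeR, adjusted p = 1.46e-08). Between OPCs and astrocytes neither was called. *Scn3b* had a log2 fold change of 0.54 ± 0.28 (edgeR, adjusted p = 0.120, higher in 8 of 9 libraries) and *Scn2b* of -0.12 ± 0.30 (edgeR, adjusted p = 0.795, higher in 4 of 9). *Scn4b* did not pass the filter, and without it edgeR put neurons above astrocytes by 1.11 ± 0.43 (adjusted p = 0.0399).

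Genes that work with sodium channels were listed as 20 counted symbols, of which 18 passed the filter. Neurons were above astrocytes for 12 of the 18 and below them for 2, where 32.4% of all genes tested were called higher and 27.9% lower. OPCs were above astrocytes for 11 and below for 3, where 19.3% of all genes were called higher and 19% lower. Higher in OPCs than in astrocytes were *Ank3*, the ankyrin that holds the channels at the axon initial segment (log2 fold change 3.36), its partner *Sptbn4*, a spectrin (3.05), *Nfasc*, an adhesion molecule of initial segment and node (3.01), and *Fgf12* (2.32) and *Fgf13* (1.02), intracellular factors that bind the tail of the alpha subunit. *Fgf13* was uneven over the OPC sums, at 345 ± 581 CPM, and higher than in astrocytes in 6 of 9 libraries only. *Tnr*, an extracellular matrix glycoprotein, was higher by 6.18. Of the sodium leak channel complex, *Nalcn*, the pore, was higher by 1.09, *Unc79* by 1.98, *Unc80* by 1.99 and *Fam155a* by 3.82. The partners were not set beside the neuron markers, and the part of neuronal RNA in their OPC levels was not tested. Lower in OPCs were *Ank2* (-1.02), *Nrcam* (-1.10) and *Nedd4l*, a ubiquitin ligase that acts on the channels (-1.41). Between neurons and OPCs, 9 were higher in neurons and 3 lower, *Ptprz1*, *Tnr* and *Cntn1*, where 29.6% of all genes were called higher and 20.9% lower, and *Nalcn* was at 0.07 ± 0.21 (edgeR, adjusted p = 0.793).

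Neurons with more than 1000 genes were next split by marker, a nucleus joining a group with at least 2 UMIs of its marker and more than of the other 3 markers together. Of 10307 neurons, 4209 were *C1ql3* neurons, 2145 *Adarb2* neurons, 1030 *Nwd2* neurons and 131 *Gad2* neurons, and 2792 joined none. *C1ql3* is a marker of PVT neurons, *Adarb2* of the mediodorsal thalamus, *Nwd2* of the habenula and *Gad2*, a GABA-synthesizing enzyme, of inhibitory neurons. Other markers of the habenula went with the name of the *Nwd2* group, *Tac2* at 883 and *Gpr151* at 66.6 CPM in *Nwd2* neurons against 2.72 and 7.10 in *C1ql3* neurons. The *Gad2* group did not hold to its name. It had 10 nuclei or more in 2 libraries only, and beside *Gad1* (56.1 CPM) and *Slc32a1* (63.2 CPM) it held the excitatory marker *Slc17a6* at 252 CPM, with *Gad1* at 0 in 1 of the 2 libraries. Levels below are CPM within the sums of marker groups, a scale of their own. In each edgeR fit of marker groups, a group was set against an even average of the other 3. *Gad2* neurons thus weighed as much as any group there, except in the female libraries alone, where they had no sums. The libraries counted beside a fit used only the groups with a sum in that library, mostly without *Gad2* neurons. Fold change and count can differ: for *Unc80* in *C1ql3* neurons the log2 fold change was 0.19, with 2 of 10 libraries higher.

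*Scn1a* was highest in *Adarb2* neurons, at 411 ± 40.2 CPM (n = 10), with 361, 407 and 497 as lowest, median and highest. It was at 259 ± 34.9 CPM in *C1ql3* neurons (202 to 327), at 235 ± 52.4 CPM in *Nwd2* neurons (122 to 303) and at 230 and 310 CPM in the 2 libraries with *Gad2* neurons. Every *Adarb2* value was above every value of the other groups. *Adarb2* neurons were above the mean of the other groups by a log2 fold change of 0.77 ± 0.09 (edgeR, adjusted p = 5.56e-09, 10 of 10 libraries), the 1 gene of 6 called there, where 12.7% of the 14066 genes tested were called higher and 24.9% in either direction. It was 0.88 within the female libraries and 0.53 within the others. *C1ql3* neurons were above *Nwd2* neurons in 9 of 10 libraries (exact sign-flip permutation test, adjusted p = 0.0469).

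*Scn8a* had the same leading group but a smaller difference. It was at 357 ± 28.8 CPM in *Adarb2* neurons (319 to 412), 281 ± 95.0 in *Nwd2* neurons (170 to 484), 247 ± 33.6 in *C1ql3* neurons (214 to 317), and 281 and 313 in the *Gad2* sums. The log2 fold change of *Adarb2* neurons was 0.44 ± 0.09 (edgeR, adjusted p = 8.14e-05), under the fold limit, and in the female libraries alone it was 0.55 and called. The *C1ql3* and *Nwd2* neurons were not told apart (exact test, adjusted p = 0.553).

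*Scn3a* was highest in *Nwd2* neurons, at 362 ± 85.3 CPM, with 279, 340 and 518 as lowest, median and highest over 10 libraries. It was at 222 ± 22.1 CPM in *C1ql3* neurons (200 to 260), 184 ± 20.6 in *Adarb2* neurons (154 to 218) and 176 and 250 in the *Gad2* sums. Every *Nwd2* value lay above every other value. *Nwd2* neurons were above the mean of the other groups by 0.92 ± 0.08 (edgeR, adjusted p = 1.24e-12, 10 of 10 libraries), 0.78 within the female libraries and 1.04 within the others, and above *C1ql3* neurons in 10 of 10 libraries (exact test, adjusted p = 0.0156). In *Adarb2* neurons *Scn3a* was at -0.41 ± 0.07 (edgeR, adjusted p = 2.89e-05), under the fold limit, and it passed that limit in each labelled set of libraries alone (-0.59 and -0.50).

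*Scn9a* was lowest in the group where *Scn3a* was highest. Its highest level was in *C1ql3* neurons, at 236 ± 31.0 CPM (197, 228 and 299 as lowest, median and highest), followed by 189 ± 41.1 in *Adarb2* neurons (136 to 266), 103 and 224 in the *Gad2* sums, and 113 ± 32.7 in *Nwd2* neurons (66.5 to 166). The ranges of *C1ql3* and *Nwd2* neurons did not overlap. *C1ql3* neurons were above *Adarb2* neurons in 10 of 10 libraries (exact test, adjusted p = 0.0156) and above the mean of the other groups by 0.72 ± 0.09 (edgeR, adjusted p = 1.41e-07). *Nwd2* neurons were below the mean of the other groups by -0.75 ± 0.11 (edgeR, adjusted p = 4.31e-07), and in 0 of 10 libraries above it. Within the female libraries these were 0.60 and -0.68, and within the others 0.81 and -0.92.

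*Scn7a*, although rare in neurons, was not evenly spread among them. It was at 4.31 ± 2.03 CPM in *C1ql3* neurons (1.97 to 7.61), 2.24 ± 2.49 in *Nwd2* neurons (0 to 7.68), 0.91 ± 1.40 in *Adarb2* neurons (0 to 4.58), and 2.64 and 2.56 in the *Gad2* sums, which held 1 or 2 UMIs each. In edgeR without the filter, *C1ql3* neurons were higher by 1.24 ± 0.30 (adjusted p = 0.000380, 10 of 10 libraries) and *Adarb2* neurons lower by -1.83 ± 0.50 (adjusted p = 0.00175, with 0 of 10 libraries above the other groups). When 1 library was left out the filter was kept, and *Scn7a* passed it in 4 fits only. The first call was lost in 1 of these 4, without the fourth library without a sex label (0.84). The second was also lost in 1 of the 4, without the third library without a sex label (-1.37).

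*Scn2b* was highest in *Nwd2* neurons, at 101 ± 20.3 CPM (76.7, 96.1 and 138 as lowest, median and highest), followed by *Adarb2* neurons at 75.3 ± 13.7 (47.2 to 88.9), *C1ql3* neurons at 63.3 ± 14.9 (32.3 to 80.0) and the *Gad2* sums at 66.8 and 49.96. Both steps from *Nwd2* to *C1ql3* neurons exceeded the spread, in 10 of 10 and 9 of 10 libraries (exact test, adjusted p = 0.0156 and 0.0313). *Nwd2* neurons were above the mean of the other groups by 0.67 ± 0.09 (edgeR, adjusted p = 2.29e-07), 0.60 within the female libraries and 0.72 within the others.

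*Scn3b* ran the other way. It was highest in *C1ql3* neurons, at 87.0 ± 10.9 CPM (62.4, 87.5 and 106 as lowest, median and highest), then at 72.4 ± 10.6 in *Adarb2* neurons (48.2 to 84.7), 57.7 ± 14.0 in *Nwd2* neurons (24.7 to 73.3), and 58.8 and 44.7 in the *Gad2* sums. Each step was seen in 9 of 10 libraries (exact test, adjusted p = 0.0313 for both). *C1ql3* neurons were above the mean of the other groups by 0.50 ± 0.09 (edgeR, adjusted p = 1.52e-05, 10 of 10 libraries), just past the fold limit. It fell short of the limit in 7 alternatives, with 0.41 to 0.50, among them each labelled set of libraries alone (0.47 and 0.44) and leaving out the fourth library without a sex label or the first or the sixth female library.

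Of the 6 genes that passed the filter, 2 were thus called in *C1ql3* neurons, where 9.9% of all genes were called higher, 7.12% lower and 17% in either direction, and 3 in *Nwd2* neurons, where 17.7% were called higher, 15.9% lower and 33.6% in either direction. In *Gad2* neurons edgeR called 0 of 6, where it called 4.01% of all genes higher, 2.74% lower and 6.75% in either direction, and DESeq2 also called 0, although 2 had an unadjusted p under 0.05, *Scn3a* and *Scn3b*. *Scn3a* had a log2 fold change of -0.46 ± 0.15 and an adjusted p of 0.0479 in edgeR, so it missed the call on the fold limit alone, while *Scn3b* had -0.44 ± 0.19 and an adjusted p of 0.218. Without the fourth library without a sex label, *Scn3a* was called there at -0.68. The 4 comparisons share their samples, since each group stands in the mean that the others are set against. *Scn4b* had 0 to 23 UMIs per sum and was at 2.72 ± 1.96 CPM in *Adarb2* neurons, 0.85 ± 0.54 in *C1ql3* neurons, 0.22 ± 0.36 in *Nwd2* neurons, and 5.27 and 0 in the *Gad2* sums. Its value in *Nwd2* neurons was -1.99 ± 0.70 in edgeR without the filter (adjusted p = 0.0220).

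**Figure D4:**
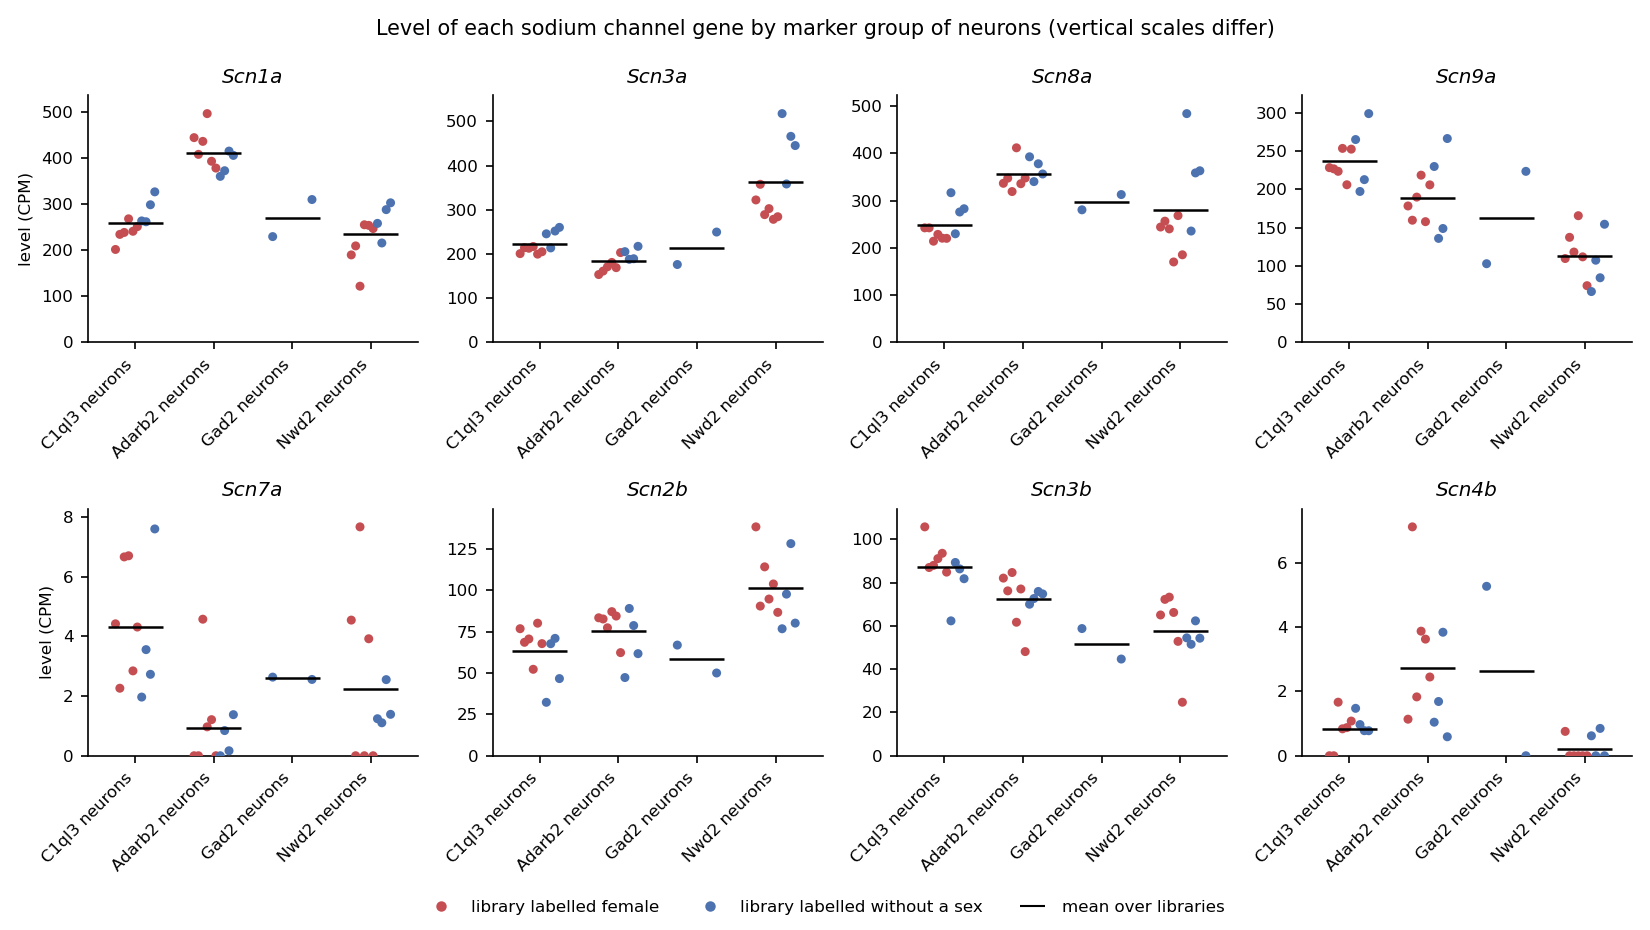
Level of each gene in CPM (vertical axis, own scale per gene) in the 4 marker groups of neurons (horizontal axis). Each point is 1 library, coloured by label, and the black line is the mean; *Gad2* neurons have 2 libraries. *Scn1a* is set apart in *Adarb2* neurons (361 to 497 CPM), *Scn3a* in *Nwd2* neurons (279 to 518 CPM), and *Scn9a* steps down from *C1ql3* to *Nwd2* neurons.

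Among *C1ql3*, *Adarb2* and *Nwd2* neurons, detection of *Scn1a*, *Scn3a* and *Scn9a* at equal depth had the order of their levels. In thinned nuclei *Scn1a* was found in 52.5 ± 6.17% of *Adarb2* neurons, 38.2 ± 4.69% of *C1ql3* neurons and 35.2 ± 9.93% of *Nwd2* neurons. *Scn3a* was found in 54.2 ± 11.1% of *Nwd2* neurons, 35.4 ± 3.16% of *C1ql3* neurons and 26.7 ± 4.21% of *Adarb2* neurons. For *Scn9a* the shares were 35.1 ± 4.21% in *C1ql3*, 26.3 ± 5.54% in *Adarb2* and 21.1 ± 7.52% in *Nwd2* neurons. *Gad2* neurons had 2 libraries, so their shares cannot be ranked beside means over 10 libraries. *Scn1a* was found in 34.0 ± 2.44% of them and *Scn9a* in 27.5 ± 11.6%. *Scn3b*, whose level was lowest there, was found in 16.8 ± 3.58%, and in 16.7 ± 3.23% of *C1ql3* neurons over 10 libraries. In the same 2 libraries the level of *Scn1a* was 270 CPM in *Gad2* neurons and 313 CPM in *C1ql3* neurons. Without thinning, *Scn1a* was in 64.2% of *Nwd2* neurons and 85.0% of *C1ql3* neurons, at median depths of 7527.5 and 12850 UMIs.

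The authors' own 8 neuron clusters, which were made from the expression of these same nuclei, are given as a description in CPM without TMM scaling. *Scn3a* was highest in cluster 6, at 412 ± 60.5 (n = 10 libraries), and between 151 and 237 in the other 7. *Scn2b* was also highest there, at 110 ± 29.2, while *Scn9a* was lowest there, at 99.3 ± 36.6, and highest in cluster 1, at 255 ± 31.2. *Scn1a* and *Scn8a* were highest in cluster 3, at 412 ± 53.2 and 363 ± 29.97, where *Scn3b* was lowest, at 53.4 ± 10.2. *Scn7a* was highest in clusters 5 and 1, at 8.74 ± 4.15 and 5.28 ± 1.96, and between 0.61 and 2.63 in the other 6.

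Among the channel partners, *Adarb2* neurons were higher for 7 of 18 and lower for 0, where 12.7% of all genes tested were called higher and 12.3% lower. The 7 were *Unc80* (log2 fold change 1.19), *Fgf12* (0.83), *Fgf13* (0.82), *Ptprz1*, a receptor phosphatase (0.81), *Cntn1* (0.65), *Nfasc* (0.60) and *Fam155a* (0.55). *Nwd2* neurons were higher for *Nedd4l* (1.22), *Nrcam* (0.83) and *Fgf14* (0.51) and lower for 5, *Fgf13* (-2.0), *Fgf12* (-1.11), *Unc80* (-1.11), *Fam155a* (-0.60) and *Ank2* (-0.59). These 8 of 18 stand beside 33.6% of all genes called in either direction, 17.7% higher and 15.9% lower. *C1ql3* neurons were higher for *Fgf13* (1.40) and lower for *Nedd4l* (-0.84) and *Fgf14* (-0.52), where 9.9% of all genes were called higher and 7.12% lower. *Gad2* neurons were lower for *Nrcam* (-0.97), where 2.74% of all genes were called lower. *Fgf13* thus ran from 1.40 in *C1ql3* neurons to -2.0 in *Nwd2* neurons.

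Between the female libraries and those without a sex label, 0 of the 7 genes that passed the filter in neurons were called, where edgeR called 6.23% of the 15278 genes tested higher in female libraries, 7.37% lower and 13.6% in either direction. DESeq2 also called 0 of them, and *Scn3a* and *Scn8a* had an unadjusted p under 0.05. *Scn3a* was at 189, 210 and 221 CPM as lowest, median and highest in the 6 female libraries and at 287, 231, 249 and 258 in the 4 others (CPM within neuron sums), so the groups did not overlap. Its log2 fold change was -0.30 ± 0.08 (edgeR, adjusted p = 0.0219), under the fold limit. *Scn8a* was at 242, 260 and 280 CPM as lowest, median and highest in female libraries and at 363, 248, 295 and 310 in the others, with overlap (-0.23 ± 0.10, edgeR, adjusted p = 0.164). *Scn2b* was at 67.6, 72.8 and 98.8 in female libraries and at 44.2, 77.7, 75.5 and 53.1 in the others, the first and the fourth of which were low (0.31 ± 0.17, edgeR, adjusted p = 0.267). *Scn1a*, *Scn9a*, *Scn3b* and *Scn7a* had log2 fold changes from -0.09 to 0.10. The median depth of neurons was 5666 to 9770 UMIs in female libraries and 12586 to 21085 in the others, and sex and depth cannot be told apart.

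**Figure D5:**
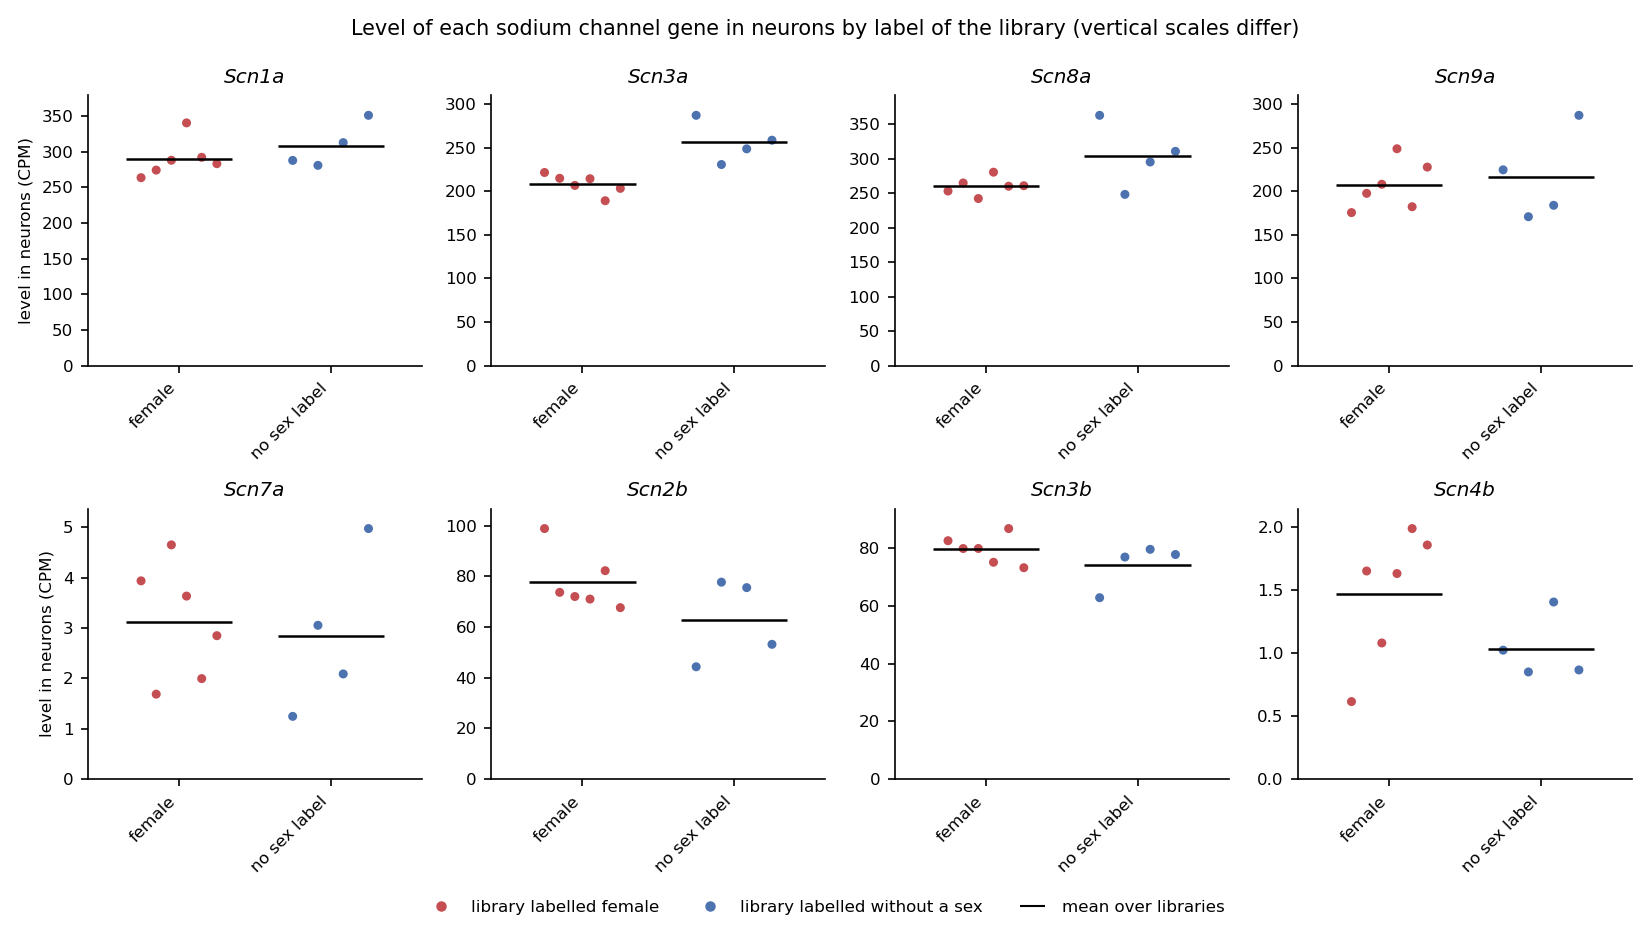
Level in neurons of each gene in CPM (vertical axis, own scale per gene) by label of the library (horizontal axis). Points are libraries and black lines are means. *Scn3a* is the gene whose female libraries (189 to 221 CPM) all lie below the other 4 (231 to 287 CPM).

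Finally, the genes with the most similar levels were found by Pearson r of log2(CPM + 1), as a description over sums that share libraries and depth. Over 73 sums of cell types, *Scn1a* was nearest to *Cadps* (r = 0.92) and *Fam155a* (0.90), *Scn3a* to *Dpp10* (0.88) and *Trpc5* (0.87), *Scn8a* to *Dpp6* (0.87) and *Lrrc7* (0.85), and *Scn9a* to *Ntng1* (0.88) and *Meg3* (0.87). *Scn7a* was nearest to *Rsph4a* (0.89) and *Zbbx* (0.89). For the beta subunits the nearest were *Camk2b* (0.78) and *Crmp1* (0.77) for *Scn2b*, *Lhfpl4* (0.84) and *Fhod3* (0.81) for *Scn3b*, and *Cit* (0.61) and *Necab1* (0.59) for *Scn4b*. Over 32 sums of marker groups, *Scn3a* was nearest to *Mtus2* (0.96) and *St6galnac5* (0.94), *Scn8a* to *Herc1* (0.91) and *Shank1* (0.91), *Scn9a* to *Gm28905* (0.91) and *Plxna2* (0.90), and *Scn1a* to *Map3k1* (0.90) and *Ttll5* (0.89). None of these pairs repeats between the cell types and the marker groups.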

How the data were processed

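Nuclei from PVT punches were isolated on a sucrose gradient and sequenced as 10x Genomics 3′ v3 libraries. The authors counted UMIs with Cell Ranger on mm10 (version 6.1.1 per the processing notes), left out nuclei with few genes or many mitochondrial transcripts and clusters of doublets or low quality, and named clusters from marker genes. No further doublet caller was run. The deposited values are raw counts of UMIs per gene and nucleus. The percent of mitochondrial transcripts per nucleus, also deposited by the authors, was used in 1 alternative. Another 21 metadata columns were not used.

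Counts were summed per library and class, and sums under 10 nuclei were left out. Sums were fitted with edgeR 4.0.16 in R 4.3.3 (quasi-likelihood test, TMM, filterByExpr), with library as a covariate except between libraries; p values were Benjamini-Hochberg adjusted over all genes tested. A gene that failed the filter was read from a fit without it. DESeq2 1.42.0 was an alternative. Levels were compared between neighbouring classes by an exact two-sided sign-flip test over libraries (numpy 2.4.6). The fits were tested on simulated data. The limits given where no UMI was found cover counting error only. SD is over libraries, and the SE of edgeR includes the spread between sums.

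The genes named were the 8 subunits, a list of channel partners (18 of 20 counted passed the filter), and the 2 genes most similar to each subunit. The members and lists were chosen with earlier results of these data known. Alternatives were other normalizations, filters, marker rules and subsets of libraries. The label numbers were checked for pairing: deviations of same-numbered female and other libraries correlated at -0.08, -0.15, -0.15 and 0.18, so they do not pair the samples.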

Additional observations from a re-analysis of the deposited data

Results flagged for a closer look

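Single libraries stood far from the rest of their group (Dixon's gap over range) in 8 of 71 groups of values, where chance gives about 1 in 20. *Scn1a* in OPCs was at 385 CPM in the fourth library without a sex label, against 244 in the next of 9 libraries, and in ependymal cells it was at 180 CPM there, against 93.4 in the next. The neuron markers summed were at 57.4% of the neuron level in the OPCs of that library and at 51.1% in its ependymal cells, and their part in these values was not tested. *Scn3a* in neurons of the fifth female library was at 244 CPM, below the nearest of the 6, at 270 CPM. *Scn7a* in astrocytes of the fourth female library was at 7.26 CPM, against 1.94 in the next of 10. In *Adarb2* neurons *Scn7a* was at 4.58 CPM in the third female library, against 1.38 in the next, and *Scn4b* at 7.12 CPM in the second female library, against 3.88. *Scn3b* in *Nwd2* neurons of the sixth female library was at 24.7 CPM, against 51.5 in the nearest, from 15 nuclei and 2 UMIs. *Scn4b* in ependymal cells was at 2.00 CPM in the third library without a sex label, from 1 UMI, and at 0 in the other 8. Of 48 effects compared between the female libraries and the others, 0 had every library of one set opposite to every library of the other.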

How the results depend on the processing

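Of the subunits' values, 487 kept direction and call when 1 library was left out and 19 did not, and under other alternatives 509 did and 34 did not. Without the filter on low counts, the genes called were 12864 for neurons against astrocytes, 8576 for neurons against OPCs and 4107 between the labelled sets (5932, 4972 and 2078 with it); with at least 20 UMIs in each set the last was 598. At most 1% mitochondrial transcripts gave 1913 for OPCs against astrocytes (3768 otherwise) and 1376 for neurons against OPCs, with 1 subunit called of the 4 that passed the filter there, and the libraries without a sex label alone gave 2639. Leaving out 1 library gave 1512 to 2749 genes and 1 to 2 subunits in *C1ql3* neurons (lowest genes without the third library without a sex label), and 313 to 1115 genes and 0 to 1 subunits in *Gad2* neurons. The subunits called in *C1ql3* neurons were 1 in either labelled set alone, with sums of 30 nuclei, and with a marker rule of at least 1 UMI. In *Adarb2* neurons they were 3 in the female libraries, 2 in the others and 3 under the strict rule (at least 3 UMIs and none of the other markers), and in *Gad2* neurons 1 with sums of 30 nuclei and 1 under the strict rule. The cause was not tested.

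Direction turned only for values that were not called. OPCs minus astrocytes: *Scn9a* log2 fold change was -0.85 without nuclei holding a neuron marker UMI, and OPCs minus astrocytes: *Scn2b* log2 fold change was 0.052 in the libraries without a sex label. In *C1ql3* neurons *Scn3a* was at 0.0059 without the filter, 0.037 at most 1% mitochondrial transcripts, 0.048 with sums of 30 nuclei, 0.14 under the strict rule and -0.11 to 0.039 leaving out 1 library. In *Adarb2* neurons *Scn2b* was at -0.014 with DESeq2's size factors, -0.016 with DESeq2 and -0.17 in female libraries, where *Scn3b* was at -0.078. In *Nwd2* neurons *Scn8a* was at -0.19 in female libraries, -0.061 without the library term and -0.060 to 0.053 leaving out 1 library. In *Gad2* neurons *Scn8a* was at 0.018 without the library term. There *Scn7a* was at -0.32 to 0.91 leaving out 1 library, in the 4 fits where it passed the filter. Between the labelled sets, leaving out 1 library gave -0.18 to 0.55 for *Scn7a* and -0.17 to 0.092 for *Scn9a*.

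With the replicate block over the 8 libraries numbered 1 to 4, 1707 genes and 0 subunits were called between the labelled sets, against 1798 and 0 in the same libraries without the block, a fit chosen after seeing the data, as was the one with sums of at least 5 nuclei. Only number 4 correlated best with its own number. *Scn4b*, *Scn7a* outside ependymal cells, and *Gad2* neurons with sums in 2 libraries are where depth limits most.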
